A study of Mus musculus with 6 samples.

Results

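Genes of the integrated stress response and of amino acid supply were examined in RNA of cultured CD73+ and CD73- adipose derived mesenchymal stem cells (AD-MSCs) of C57BL/6 mice. The set has 38 listed genes, chosen by name for their place in the ATF4 pathway, in amino acid transport or in serine and one-carbon metabolism. Of these, 36 were read by at least 1 probe set annotated to a single gene, out of 18193 genes read in this way, and they had 84 probe sets out of 45037. The mRNA levels of Gdf15 and Pycr1 were not analysed here. The cells came from the fat around the groin, were sorted by flow cytometry on CD73, the surface enzyme encoded by Nt5e, and were cultured in low sugar DMEM with fetal bovine serum. RNA for the arrays came from sorted cells at the fifth passage. The labels name no genetic change or drug treatment in either subgroup, and 3 Affymetrix arrays were made of each. It is not stated if arrays of 1 subgroup stem from different animals or cultures, and the p-values then cover the spread between arrays alone, which may be technical.

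The integrated stress response is a shared answer of cells to a lack of amino acids, misfolded protein in the endoplasmic reticulum, a lack of heme or viral RNA. Each signal activates its own kinase, all of which phosphorylate the alpha subunit of the initiation factor eIF2. General protein synthesis then slows while the mRNA of the transcription factor ATF4 is translated more. ATF4 pairs with C/EBP family proteins and switches on genes that import and make amino acids, charge tRNA, defend against oxidation and, when the stress lasts, lead to cell death. The arrays measure mRNA only, and neither ATF4 protein nor phosphorylated eIF2 was measured here.

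ATF4 binds a short composite element in the promoters of its targets, and the stretches below show where its core occurs near the starts of listed genes. The core searched was TGATGNAA, on either strand, in RefSeq promoters of build GRCm38.p6 that run from 250 bases before to 50 bases after the start. Capitals mark the core or its reverse, TTNCATCA, with 30 bases on each side where the window allows. Stretches are given 5′ to 3′ on the strand of the gene. Shown are 6 of the 7 members with the core whose mRNA was lower on the deposited scale, for roles in import (Slc7a11, Slc1a4), synthesis (Asns), glutathione breakdown (Chac1) and regulation (Trib3, Nupr1).
Slc7a11 (chr3:50443623-50443709, minus strand): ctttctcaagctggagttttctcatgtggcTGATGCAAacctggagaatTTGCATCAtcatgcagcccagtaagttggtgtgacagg
Asns (chr6:7693195-7693262, minus strand): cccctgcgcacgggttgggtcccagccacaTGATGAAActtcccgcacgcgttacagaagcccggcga
Chac1 (chr2:119351019-119351086, plus strand): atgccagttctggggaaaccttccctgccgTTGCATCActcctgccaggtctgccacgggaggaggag
Trib3 (chr2:152344011-152344076, minus strand): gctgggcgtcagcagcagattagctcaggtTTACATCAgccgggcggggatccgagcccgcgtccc
Slc1a4 (chr11:20332680-20332747, minus strand): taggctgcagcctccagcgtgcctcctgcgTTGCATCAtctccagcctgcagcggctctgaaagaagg
Nupr1 (chr7:126625543-126625610, minus strand): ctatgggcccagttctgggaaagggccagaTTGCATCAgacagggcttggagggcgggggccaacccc

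Of 34 listed genes found in the promoter table, 9 (26.5%) had the core in at least 1 window, against 1219 of 27025 genes in the whole table (4.51%). The Slc7a11 window held it 2 times, in opposite orientations, beginning 66 and 47 bases before the start. In Asns it began 23 bases before the start, in Chac1 193 bases before it and in Trib3 15 bases after it. The other genes with the core were Vldlr, Fgf21 and Pycr1. Aldh1l2, Cth, Slc7a5 and Slc1a5 were not found in the table. A match of letters is a description of the window and not a binding site. The genes were listed partly for their place in the ATF4 pathway, so a share above that of all genes can follow from this choice. It is no result of the arrays.

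The 6 arrays had medians of the probe sets between 5.28 and 5.37 on the log2 scale. The deposited values were made with quantile normalization, which makes arrays alike, so this is no check of them. Nt5e had log2 levels of 7.84, 7.60 and 7.74 in the CD73+ arrays and 7.29, 6.39 and 6.84 in the CD73- arrays on its brightest probe set, and passed there (adjusted p = 0.0218 from limma). Its 2 dimmer probe sets did not pass. Of 11 measured stromal markers all lay above the array median, and 7 of them, among them Thy1, Pdgfra and Col1a1, were higher in CD73+ AD-MSCs, with a mean level over the list of 10.62 to 10.65 in the CD73+ arrays and 10.10 to 10.13 in the CD73- arrays. Lists for adipocytes, endothelial cells, macrophages, lymphocytes, mesothelium, pericytes, Schwann cells and skeletal muscle had mean levels of at most 5.84, and 4 of their genes (Cnn1, Csf1r, Msln and Acta1) were higher and 0 lower. Ptprc, the leukocyte marker CD45, and Adipoq, the adipocyte hormone, were among the dimmest array values. Other markers were brighter, and 1 of 6 adipocyte and 3 of 8 macrophage genes lay above the array median. Mean levels in CD73+ and CD73- AD-MSCs were 9.28 and 9.36 for Lpl, 6.87 and 6.38 for Csf1r, and 11.25 and 10.77 for Cnn1. The 12 probe sets of the poly-A controls, bacterial transcripts spiked into RNA ahead of the labelling step, averaged 7.70 to 7.84 in the CD73+ arrays and 8.64 to 8.71 in the CD73- arrays, a difference of -0.93. The log2 ratio of the 3′ over the 5′ probe set of beta-actin, a sign of RNA integrity, ran from 0.072 to 0.10 in the CD73+ arrays and from 0.16 to 0.21 in the CD73- arrays. That of Gapdh overlapped, at -0.31 to -0.24 in the CD73+ arrays and -0.32 to -0.27 in the CD73- arrays. The part of stromal marker levels, RNA integrity or the added controls in the differences below was not tested. In bulk RNA, fewer cells of one kind and less RNA per cell cannot be told apart.

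All differences below are log2 differences, CD73+ minus CD73- AD-MSCs, on the deposited scale, where the median over all genes was -0.018. When arrays were scaled to the poly-A controls instead, the median over all genes moved to 0.91 and that over the 36 measured members to 0.59. Directions given here are therefore relative to the bulk of the genes. Against the median of all genes, 31 of the 36 members were lower on either scale. That count had to be the same, since the scaling shifts all genes of an array alike, so it is no check on the shift.

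mRNAs of the integrated stress response and of amino acid supply were mostly lower in CD73+ AD-MSCs, set against CD73- AD-MSCs, on the deposited scale. With poly-A scaling 32 of 36 passed as higher and 0 as lower. Over all 18193 genes 18048 passed as higher there and 19 as lower, so the count follows the shift of all genes. On the deposited scale 26 of 36 members (72.2%) were lower (limma, Benjamini-Hochberg threshold 0.05), 1 was higher and 9 did not pass. Over all 18193 genes 12.6% were lower and 10.1% higher. These shares include dim genes, whereas 35 members lay above the median level of the probe sets. With the fit limited to probe sets above that level, the shares were larger, with 2980 of 11128 genes lower and 2306 higher. The median difference of the members was -0.34, with quartiles at -0.43 and -0.12. Set against the mean of the CD73- arrays, the median over the members was -0.31, -0.32 and -0.30 in the CD73+ arrays and 0.017, 0.0078 and -0.018 in the CD73- arrays. The values of the CD73+ arrays all lay below those of the CD73- arrays for 29 members (80.6%), which was so for 22.7% of all genes. Without CD73+ replicate 1 the number called lower was 17, and 17 of the 26 kept the call without each single array. Calls fell over all 18193 genes too, with 1410 lower without CD73+ replicate 1, against 2301 with every array.

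**Figure D1:**
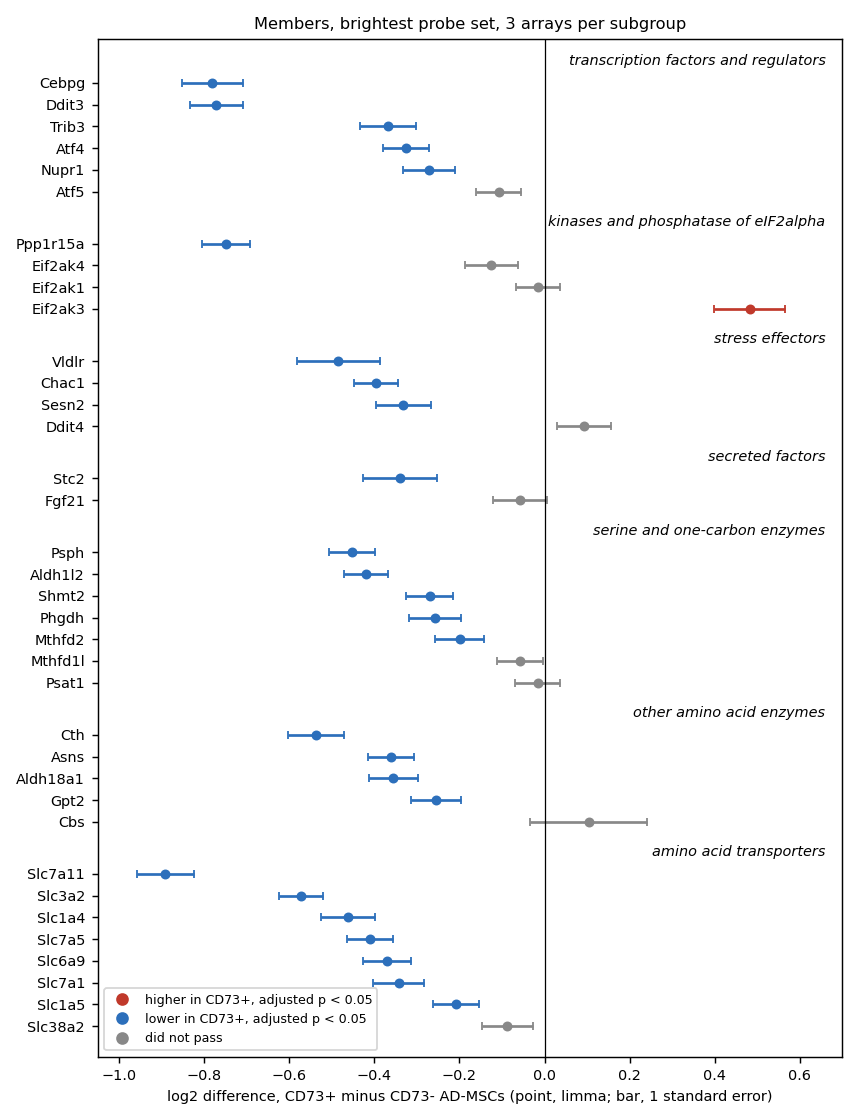
The horizontal axis gives the log2 difference (CD73+ minus CD73-) for 36 genes grouped by role, and bars show 1 standard error of the limma fit to 3 arrays of each subgroup. Blue points passed as lower and the red point as higher on the deposited scale, unlike with poly-A scaling, and values run from -0.89 for Slc7a11 to 0.48 for Eif2ak3.

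Among the transcription factors and regulators, 5 of 6 were lower and none was higher. Atf4, the central factor of the response, had log2 levels of 12.54, 12.48 and 12.57 in the CD73+ arrays, against 12.87, 12.86 and 12.83 in the CD73- arrays. The subgroups did not overlap, and the difference was -0.33 (standard error 0.055, adjusted p = 0.00597 from limma). Its dimmer probe sets differed by -0.60 and -0.30 and passed as well, the first being of a kind that can bind related transcripts.
Ddit3, which encodes CHOP, a factor linked to cell death under lasting stress, had log2 levels of 11.33, 11.26 and 11.41 in the CD73+ arrays, against 12.13, 12.12 and 12.06 in the CD73- arrays. The lowest CD73- array lay well above the highest CD73+ array, and the difference was -0.77 (standard error 0.062, adjusted p = 0.00036 from limma), a fold of 0.59. A second and dimmer probe set had -0.18 and did not pass.
Cebpg, a C/EBP protein that pairs with ATF4, had log2 levels of 8.82, 8.91 and 9.01 in the CD73+ arrays, against 9.77, 9.71 and 9.62 in the CD73- arrays. All CD73+ values were the lower ones, with a difference of -0.78 (limma, standard error 0.072, adjusted p = 0.000565). The other Cebpg probe sets had -0.20 and 0.07 and did not pass. Trib3, a pseudokinase that restrains ATF4 and CHOP, was lower on both of its probe sets (-0.37 and -0.38), and Nupr1, a small stress-induced chromatin protein, was lower on both as well (-0.27 and -0.19), the brighter of which lost its call without CD73+ replicates 1 or 2 or CD73- replicates 1 or 2 (adjusted p from limma 0.0651 to 0.0790). Atf5, an ATF4-related factor, differed by -0.11 without passing (adjusted p = 0.22 from limma), although all its CD73+ values lay below all its CD73- values.

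Of the 3 eIF2 kinases among the members, 1 was higher and 2 did not pass. Eif2ak3 encodes PERK, the sensor in the endoplasmic reticulum, and was the 1 member called higher. It had log2 levels of 7.96, 7.78 and 7.90 in the CD73+ arrays, against 7.50, 7.45 and 7.26 in the CD73- arrays. Here every CD73+ value was the higher one, and the difference was 0.48 (standard error 0.084, adjusted p = 0.00696 from limma). A second Eif2ak3 probe set, near the lowest values of the arrays, had 0.25 and passed, and the dimmest had -0.13 and did not.
Eif2ak4 encodes GCN2, which senses uncharged tRNA, and had log2 levels of 6.67, 6.69 and 6.69 in the CD73+ arrays, against 6.80, 6.90 and 6.73 in the CD73- arrays. These values did not overlap, yet the difference of -0.12 did not pass (adjusted p = 0.242 from limma), and the second probe set had 0.12.
Eif2ak1 encodes HRI, the heme-regulated kinase, and had log2 levels of 6.64, 6.66 and 6.66 in the CD73+ arrays, against 6.68, 6.64 and 6.68 in the CD73- arrays. These values overlapped (-0.02, adjusted p = 0.892 from limma). Of its 4 dimmer probe sets 1 passed as lower, with -0.36.
Ppp1r15a encodes GADD34, the subunit that leads a phosphatase to eIF2 and so ends the response. It had log2 levels of 10.66, 10.58 and 10.61 in the CD73+ arrays, against 11.37, 11.40 and 11.32 in the CD73- arrays. The gap between the subgroups was many times the spread within them, with a difference of -0.75 (limma, standard error 0.056, adjusted p = 0.000286) and a fold of 0.59.

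**Figure D2:**
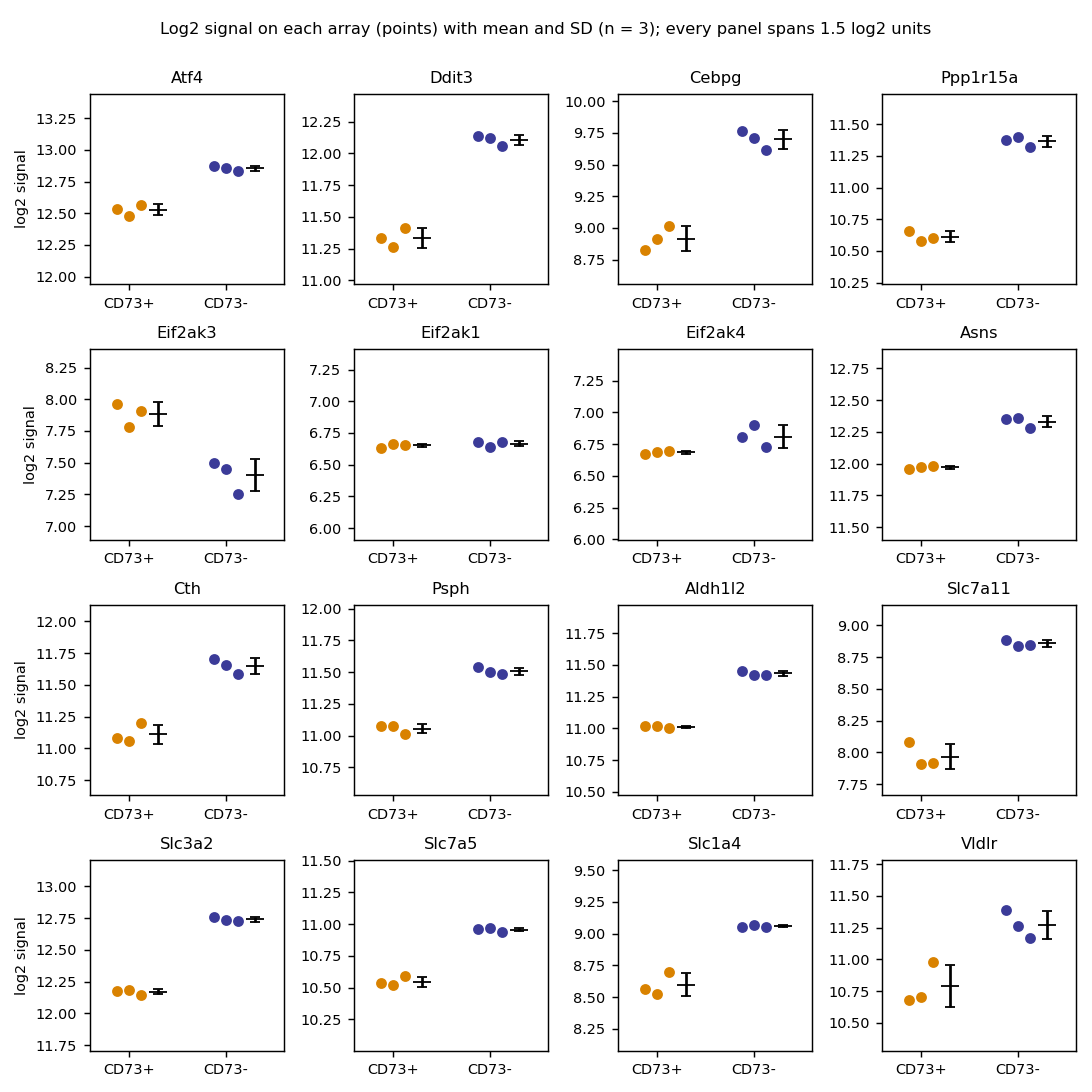
Log2 signal of 16 genes on each array (vertical axis, points), CD73+ arrays on the left and CD73- arrays on the right of each panel, with the mean and SD (n = 3) in black, on the deposited scale. Slc7a11, Ddit3, Cebpg and Ppp1r15a show the widest gaps with CD73+ lower, Eif2ak3 lies higher in CD73+ AD-MSCs, and the Eif2ak1 values overlap.

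Of the 4 stress effectors, 3 were lower. Vldlr, a lipoprotein receptor whose gene is a target of ATF4, had log2 levels of 10.68, 10.71 and 10.98 in the CD73+ arrays, against 11.39, 11.26 and 11.17 in the CD73- arrays. CD73+ replicate 3 was the closest to the other subgroup, and the difference of -0.48 (limma, standard error 0.098, adjusted p = 0.0128) did not pass without CD73+ replicate 1 (adjusted p = 0.0516 from limma). Its second probe set was also lower (-0.33), while the 4 dimmest, at -0.15 to -0.09, did not pass. Chac1, which breaks down glutathione, was lower by a difference of -0.40, and its CD73+ values, 11.10 to 11.11, were nearly the same on each array, against 11.49 to 11.53 in CD73- AD-MSCs. Sesn2, a leucine sensor that restrains mTORC1, was lower on both probe sets, by -0.33 on the brighter and -0.69 on the dimmer. The call on the brighter one ended without CD73+ replicate 1 (adjusted p = 0.0505 from limma). Ddit4, another inhibitor of mTORC1 that also answers to hypoxia and glucocorticoids, had overlapping values and a difference of 0.09 (adjusted p = 0.401 from limma).
The measured secreted members had mean log2 levels of 6.03 to 6.63 on their brightest probe sets, above the array median of 5.33. Stc2, a glycoprotein hormone, had log2 levels of 6.36, 6.41 and 6.10 in the CD73+ arrays and 6.64, 6.59 and 6.66 in the CD73- arrays, and was lower by a difference of -0.34 (adjusted p = 0.0327 from limma). Its call ended when any of 4 arrays was left out (CD73+ replicate 1 or CD73- replicates 1, 2 or 3, adjusted p from limma 0.0658 to 0.0921), while a second probe set passed with -0.47. Fgf21, a metabolic hormone, had -0.06 and overlapping values (adjusted p = 0.624 from limma).

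Enzymes of the serine route were unevenly lower. Of 7 serine and one-carbon members, 5 were lower and none was higher, with a median difference of -0.26. Psph, the phosphatase of the last step of serine synthesis, had log2 levels of 11.07, 11.08 and 11.01 in the CD73+ arrays, against 11.54, 11.50 and 11.48 in the CD73- arrays. The subgroups were well apart, with a difference of -0.45 (limma, standard error 0.055, adjusted p = 0.00158).
Aldh1l2, a mitochondrial enzyme that oxidises formyl-folate, had log2 levels of 11.02, 11.02 and 11.00 in the CD73+ arrays, against 11.45, 11.42 and 11.42 in the CD73- arrays. Arrays of a subgroup hardly differed, and the difference between subgroups was -0.42 (standard error 0.052, adjusted p = 0.00168 from limma).
Phgdh, the first enzyme of the route, was lower by a difference of -0.26 on the brightest of 4 probe sets, all of the kind that can bind related transcripts, and 2 of the others passed as lower. Shmt2, the mitochondrial enzyme that turns serine into glycine, had -0.27 on its brightest probe set, which can bind related transcripts. Its other probe sets had -0.27, which passed, and -0.14, on the ordinary kind, and -0.13, which did not. Mthfd2, the mitochondrial partner of Shmt2 in folate use, had -0.20, and its dimmer probe set had -0.13 and did not pass. The calls of these 3 genes were among those lost in some fits with 1 array left out (adjusted p from limma 0.0756 to 0.0975 for Phgdh, 0.0561 to 0.0587 for Shmt2 and 0.0943 to 0.152 for Mthfd2 there). They were lost without CD73+ replicates 1 or 2 or CD73- replicate 2 for all of them, without CD73- replicate 1 for Phgdh and Mthfd2, and without CD73+ replicate 3 for Mthfd2. Over all fits with 1 array left out the differences moved little. They ran from -0.29 to -0.23 for Phgdh, from -0.30 to -0.26 for Shmt2 and from -0.23 to -0.18 for Mthfd2. Psat1, the aminotransferase between Phgdh and Psph, had overlapping values and a difference of -0.02 (adjusted p = 0.89 from limma). Mthfd1l, the mitochondrial formate-producing enzyme, had -0.06 (adjusted p = 0.543 from limma).

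Of 5 other amino acid enzymes, 4 were lower. Asns, asparagine synthetase, had log2 levels of 11.96, 11.97 and 11.98 in the CD73+ arrays, against 12.35, 12.36 and 12.28 in the CD73- arrays. No values overlapped, and the difference was -0.36 (standard error 0.054, adjusted p = 0.00381 from limma). Its brightest probe set can bind related transcripts, and the second, which is of the ordinary kind, had -0.22 and passed as well.
Cth, which makes cysteine from cystathionine, had log2 levels of 11.08, 11.06 and 11.20 in the CD73+ arrays, against 11.71, 11.66 and 11.59 in the CD73- arrays. Its difference of -0.54 (limma, standard error 0.065, adjusted p = 0.00161) was the largest of these enzymes. Cbs, which acts just before Cth, lay near the array medians, and neither of its probe sets passed (0.10 and 0.07).
Aldh18a1, the first enzyme of proline synthesis, was lower on all 5 probe sets, with differences of -0.39 to -0.32. Gpt2, the mitochondrial alanine aminotransferase, was lower on all 4, with differences of -0.37 to -0.25, although its brightest probe set lost the call when CD73+ replicates 1 or 3 or CD73- replicates 2 or 3 were left out (adjusted p from limma 0.0539 to 0.0915).

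Of 8 amino acid transporters, 7 were lower and none was higher, with a median difference of -0.39. Slc7a11 encodes xCT, which takes up cystine in exchange for glutamate, and carried the 2 promoter cores shown above. It had log2 levels of 8.08, 7.90 and 7.91 in the CD73+ arrays, against 8.89, 8.84 and 8.85 in the CD73- arrays. This was the widest gap among all members, with a difference of -0.89 (limma, standard error 0.067, adjusted p = 0.000284) and a fold of 0.54, and the second probe set had -0.48 and passed.
Slc3a2, the CD98 heavy chain that pairs with both xCT and LAT1, had log2 levels of 12.18, 12.19 and 12.15 in the CD73+ arrays, against 12.76, 12.73 and 12.73 in the CD73- arrays. The difference was -0.57 (standard error 0.052, adjusted p = 0.000539 from limma). Slc7a5, which encodes LAT1, the carrier of leucine and other large neutral amino acids, had log2 levels of 10.53, 10.52 and 10.59 in the CD73+ arrays, against 10.96, 10.97 and 10.94 in the CD73- arrays. For both genes the arrays of a subgroup lay close together and apart from the other subgroup, and the Slc7a5 difference was -0.41 (standard error 0.054, adjusted p = 0.00218 from limma).
Slc1a4, a carrier of alanine, serine and cysteine, had log2 levels of 8.56, 8.53 and 8.70 in the CD73+ arrays, against 9.05, 9.07 and 9.06 in the CD73- arrays. It was lower on each of its 3 probe sets, with differences of -0.54 to -0.39 and -0.46 (standard error 0.064, adjusted p = 0.00262 from limma) on the brightest. Slc7a1, the arginine and lysine carrier, was lower on 3 of 3 probe sets, by -0.34 on the brightest and -0.64 on each of the others. Slc6a9, a glycine carrier, had -0.37, and its dimmer probe set had -0.24 and did not pass. Slc1a5, the glutamine carrier, had -0.21 with a call lost whichever array was left out (adjusted p from limma 0.0533 to 0.136). The dimmer Slc1a5 probe set had -0.05 and did not pass. Slc38a2, a glutamine carrier that amino acid lack induces, did not pass on any of its 3 probe sets (-0.09, 0.12 and 0.01).

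**Figure D3:**
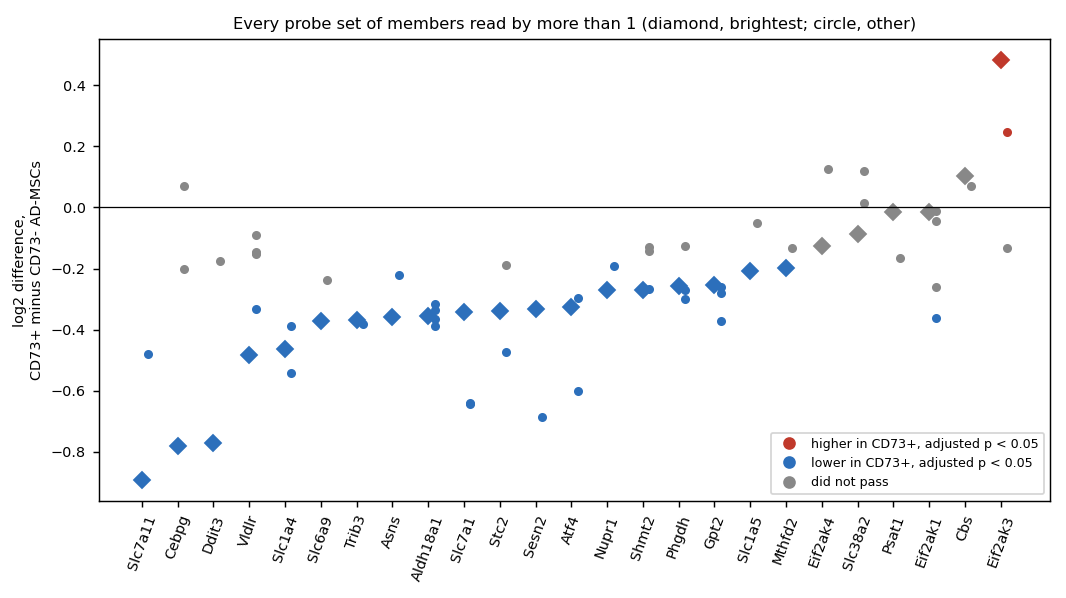
Log2 difference, CD73+ minus CD73- AD-MSCs, on the vertical axis for every probe set of the 25 genes read by more than 1, diamonds for the brightest and circles for the others, on the deposited scale. Most circles lie on the same side of 0 as their diamond, from -0.69 for the second Sesn2 probe set up to 0.25 for the second Eif2ak3 probe set, and no gene had probe sets that passed in opposite directions.

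Counted by probe set, 50 of 84 (59.5%) were lower and 2 higher, both of Eif2ak3. These are counts on the deposited scale, and with poly-A scaling 80 were higher, as were 18048 of all 18193 genes. Over all 45037 probe sets 9.11% were lower and 9.79% higher. Among 20 called members with more than 1 probe set, every probe set carried the same call in 10, and in 0 did any pass in the other direction. The number lower was 28 without CD73+ replicate 1 and 30 without CD73- replicate 2. Over all 18193 genes, read from the brightest probe set, 1410 and 1433 were lower in these fits, against 2301 with every array.

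Other genes of the pathway were read from 9 further lists, each set beside the 12.6% lower and 10.1% higher of all genes, and with directions that hold on the deposited scale only. Both shares include dim genes and were larger among brighter genes, as given above. Of 19 measured aminoacyl-tRNA synthetases of the cytosol, which load amino acids onto tRNA, 15 were lower and 1 was higher, with a median difference of -0.28. Farsb and Eprs, for phenylalanine and for glutamate and proline, had -0.58 and -0.56, while Qars, for glutamine, was higher with 0.27, although none of its 3 other probe sets passed. The number lower ran from 8 to 17 over the other settings, scaling to the poly-A controls aside, with 8 without CD73+ replicate 1 and 9 without CD73+ replicate 2. The call of Qars ended without either of these arrays or CD73- replicate 2. It also ended under median centring, the replicate block and the mean of a gene's probe sets (settings listed below).
Of 19 further ATF4 targets and partners, 13 were lower and 3 were higher, with a median of -0.33. Atf3, a stress-induced repressor, had -0.85 (adjusted p = 0.000335 from limma) and Gadd45a, a growth arrest gene, -0.75 (adjusted p = 0.000487 from limma). Cebpd, a C/EBP factor also induced by inflammation, was higher with 1.30 (adjusted p = 8.59e-05 from limma), and Trib1, a relative of Trib3, with 0.57.
Subunits and regulators of eIF2 itself were mixed, with 4 lower and 2 higher of 13. Eif2ak2, the kinase that senses viral RNA, was higher with 0.20, and Ppp1r15b, the constitutive partner of the eIF2 phosphatase, was lower with -0.42. Eif2b3 of the exchange factor had -0.48, and Eif2s3x, a subunit of eIF2, 0.21. The higher calls of Eif2ak2 and Eif2s3x both ended whichever array was left out, so that 0 of the list were then higher.

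Lists of neighbouring metabolism had medians close to that of all genes, while single genes passed in both directions. Of 16 other folate and one-carbon enzymes, 3 were lower and 1 higher, with Shmt1, the cytosolic counterpart of Shmt2, at -0.43, Dld, a subunit of the glycine cleavage system, at -0.48 and Mthfd2l, a relative of Mthfd2, at 0.35. The number higher was 2 without CD73+ replicate 3 or CD73- replicate 1. Methionine cycle and glutathione enzymes had 4 lower and 2 higher of 15, with the methionine synthase Mtr at -0.60, its reductase Mtrr at -0.36, the taurine enzyme Csad at 0.61 and the sulfur transferase Mpst at 0.46. Enzymes of glutamine, aspartate, proline, arginine and branched-chain amino acids had 3 lower and 1 higher of 18, with Bckdhb at -0.37, Bcat1, a branched-chain aminotransferase, at -0.33 and Oat, ornithine aminotransferase, at 0.29. Without CD73+ replicate 1 or 2, 0 of these were higher.
Amino acid transporters other than the 8 members had 4 lower and 5 higher of 25. Slc7a3, a relative of Slc7a1, had -0.65 and Slc38a9, a lysosomal arginine sensor, -0.58. The Slc38a9 probe set can bind related transcripts, and of its 6 dimmer ones 1 passed as lower. Slc6a6, the taurine carrier, had 0.52 and Slc43a2, a leucine carrier, 0.53. Whether the lists differ was not tested. Amino acid sensing and mTORC1 genes had 8 lower and 1 higher of 24, with a median of -0.089. Rragd, a GTPase of amino acid sensing, was at -0.47, Akt1s1, a subunit of mTORC1, at -0.41 and Lamtor4, of its lysosomal anchor, at 0.26. The number lower was 4 without CD73+ replicate 1 and 5 without CD73+ replicate 2 or CD73- replicate 1. The number higher was 0 when 1 of these arrays or CD73- replicate 2 was left out, and 2 without CD73+ replicate 3. Over all other settings but poly-A scaling, 4 to 10 were lower and 0 to 4 higher.
The XBP1 and ATF6 branches of the unfolded protein response, which raise folding capacity in the endoplasmic reticulum, had 5 lower and 6 higher of 17, with a median of 0.089. The number higher was 2 without CD73+ replicates 1 or 2 or CD73- replicates 2 or 3, and 3 without CD73+ replicate 3, while 5 were lower without each array. It was also 2 higher under median centring and the replicate block. Over all other settings but poly-A scaling the number higher ran from 2 to 8. The factors Atf6 and Xbp1 had -0.52 and -0.52, whereas the folding protein Sdf2l1 had 0.49 and Sec61b, of the translocation channel, 0.42. Among the genes named from these lists, Trib1, Mthfd2l, Dld, Mtr, Bcat1, Slc43a2 and Rragd had dimmer probe sets of which none passed.

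**Figure D4:**
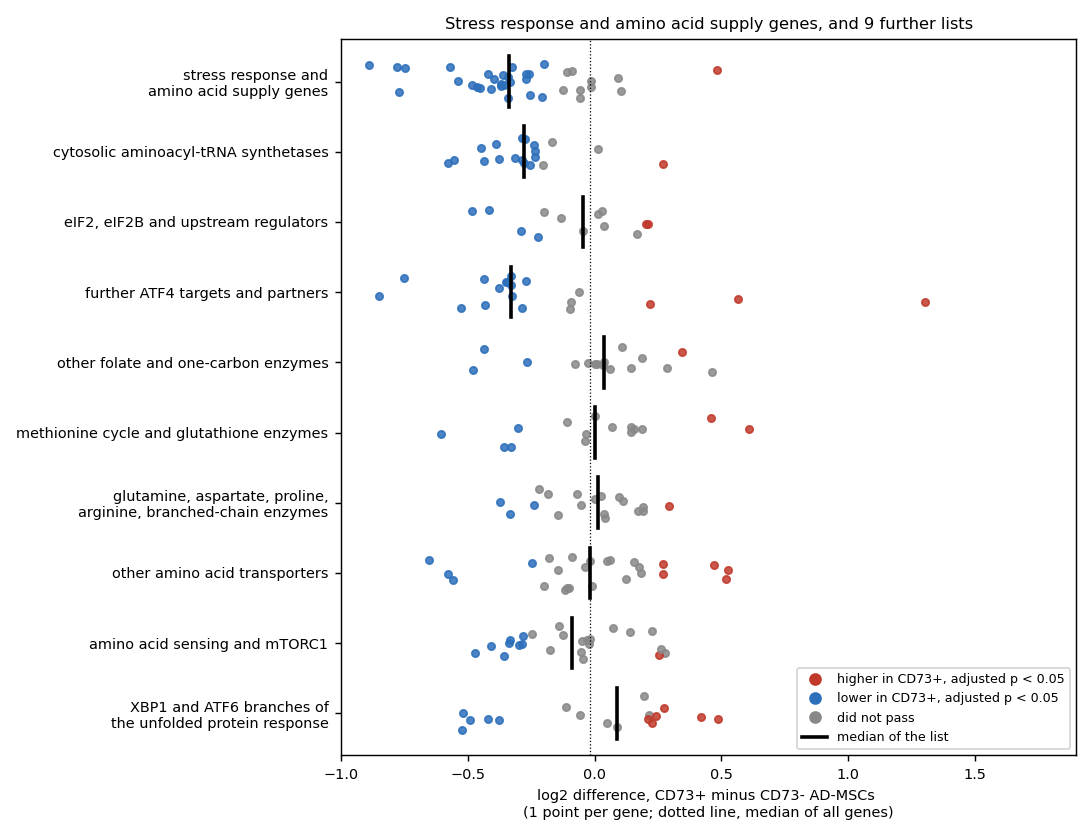
Log2 difference, CD73+ minus CD73- AD-MSCs, on the horizontal axis for each measured gene of the stress response and amino acid supply set and of 9 further lists (1 point per gene, 3 arrays per subgroup), with black bars for the list medians and a dotted line at the median of all genes. The set (-0.34), the tRNA synthetases (-0.28) and the further ATF4 targets (-0.33) have medians left of the dotted line at -0.018 while those of the metabolic lists lie close to it, on the deposited scale. With poly-A scaling 0 genes of any list passed as lower, and over all 18193 genes 19 passed as lower and 18048 as higher.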

How the data were processed

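For 45101 probe sets the authors deposited 1 log2 value per array, made with RMA per the submitters' notes (background correction, quantile normalization and a summary over the probes of a set). Its version and the genome build were not given in the sources used here. RMA removes shifts shared by most transcripts and tends to compress small ratios. Values were used as deposited. Without 64 control probe sets, 45037 entered a linear model (limma 3.58.1, R 4.3.3, lmFit and eBayes), with p-values adjusted by Benjamini-Hochberg over that whole table and a threshold of 0.05. The paper names no test for single probe sets on the arrays. For differences between groups its methods name one-way analysis of variance with Tukey's test. For a pair of subgroups this is the equal-variance test called the methods' t-test here. It was run as an alternative, adjusted in the same way. Platform annotation gave 34945 probe sets 1 gene symbol, 932 several and 9160 none, and 34741 Entrez IDs matched RefSeq. A gene was read from its brightest probe set by the mean over all arrays.

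Values on every array are given for members that passed without overlap at a difference of at least 0.4, and for Atf4, Ddit3, Asns and the eIF2 kinases. From each further list the text names, among genes that passed, at most 2 higher and 2 lower ones of largest size. Nt5e and the cell type markers were named for their function, and the array values of Stc2 and Chac1 were added after they were seen. Members, lists and rules were chosen with earlier results of these data known, the lists by hand from textbook knowledge.

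The fit was tested on simulated data. The median SD within a subgroup was 0.10, and the number of arrays limits the precision. Alternatives were a replicate block, other scalings, a filter on dim probe sets, a trended prior, other choices of probe set and leaving out each array. Plots were made in Python 3.11.15 (matplotlib 3.10.9).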

Additional observations from a re-analysis of the deposited data

How the results depend on the processing

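Quantile normalization, median centring, the filter on dim probe sets (which dropped Cbs), the trended prior, the methods' t-test and the mean of a gene's probe sets gave 25 to 27 members lower. Leaving out single arrays gave 17 to 23 members lower, 28 to 44 probe sets lower and 1 probe set higher. Over all 18193 genes, 1410 to 2142 were then lower, against 2301 with every array. The count of probe sets higher was also 1 under the trended prior, the filter, median centring, quantile normalization, the replicate block and the methods' t-test. Using no probe sets that can bind related transcripts, an alternative chosen after seeing the data, gave 24 members lower. Same-numbered arrays did not deviate together (r = -0.14, 0.03 and -0.14 over probe sets). The labels do not say if the numbers pair the arrays, and these correlations cannot decide it. With the replicate block 19 members and 30 probe sets were lower, and 1477 of all 18193 genes. Calls lost under one setting other than the block or a left-out array were those of Mthfd2 (median centring, adjusted p = 0.0661 from limma), Slc1a5 (mean of probe sets, adjusted p = 0.106 from limma), Shmt2 (without such probe sets, adjusted p = 0.114 from limma), and Stc2 and Vldlr (the methods' t-test). Atf5 passed as lower under the trended prior and the methods' t-test. Scaling to the poly-A controls moved all genes, with 18048 of 18193 passing as higher and 19 as lower. It gave 0 members and 0 probe sets lower, 32 members and 80 probe sets higher, and turned the median over the members to 0.59. Relative to the median of all genes the members stayed lower, by a log2 difference of -0.33 to -0.30 over all settings with a value. Settings that shift whole arrays, poly-A scaling among them, or that change only the error model cannot alter this value and do not test it. With poly-A scaling the log2 differences turned positive, at Aldh18a1 0.57, Aldh1l2 0.51, Asns 0.57, Atf4 0.60, Atf5 0.82, Cebpg 0.15, Chac1 0.53, Cth 0.39, Ddit3 0.16, Eif2ak1 0.91, Eif2ak4 0.80, Fgf21 0.87, Gpt2 0.67, Mthfd1l 0.87, Mthfd2 0.73, Nupr1 0.66, Phgdh 0.67, Ppp1r15a 0.18, Psat1 0.91, Psph 0.47, Sesn2 0.59, Shmt2 0.66, Slc1a4 0.46, Slc1a5 0.72, Slc38a2 0.84, Slc3a2 0.35, Slc6a9 0.56, Slc7a1 0.58, Slc7a11 0.035, Slc7a5 0.52, Stc2 0.59, Trib3 0.56 and Vldlr 0.44. The cause was not tested. Cbs (1.03) and Ddit4 (1.02) passed as higher there.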
